A study of Mus musculus with 4 samples.

Results

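The 33 genes described here carry glucose from its uptake to lactate or to pyruvate entry into mitochondria. They were chosen by name, as 2 glucose transporters, the glycolytic enzymes and the enzymes that set fructose-2,6-bisphosphate, 2 lactate dehydrogenases, 2 monocarboxylate transporters, 4 pyruvate dehydrogenase kinases and 2 subunits of pyruvate dehydrogenase. The choice was made with earlier results of these data known, so counts of members that rose or fell are descriptions. All 33 were found among the 53647 genes of the deposited tables, and 30 had enough reads to be tested, each with at least 16 counts in every library. RNA was sequenced from wild-type 4T1 cells, a mouse mammary carcinoma line kept in culture, which received mRNA for the fluorescent protein EGFP (Mock, 2 libraries) or for uniSTING, a mimic of STING, the adaptor protein of cytosolic DNA sensing (2 libraries). The carrier of each library (TransIT reagent or SS-OP lipid nanoparticles, both in the labels), its dose and its time are not stated, and all 4 libraries come from 1 cell line that had received some mRNA. The study asked how uniSTING acts on type I interferon signalling and on other pathways of the tumour cells.

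Glycolysis splits glucose into pyruvate and yields ATP in the cytosol. Hexokinase and phosphofructokinase commit glucose to the route, and the lower part, from aldolase to pyruvate kinase, returns the ATP. Lactate dehydrogenase then reduces pyruvate to lactate, which leaves the cell through monocarboxylate transporters, whereas the pyruvate dehydrogenase complex turns pyruvate into acetyl-CoA. Pyruvate dehydrogenase kinases phosphorylate that complex and switch it off. Tumour cells are known to send much pyruvate to lactate even with oxygen present, and many of these genes are known targets of hypoxia-inducible factor and of Myc.

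Most of the pathway was higher in the uniSTING libraries. Of the 30 tested genes, 21 rose (70%), 3 fell and 6 did not pass the test, where 24.9% of all 12972 tested genes rose, 25.4% fell and 50.2% did either (edgeR quasi-likelihood test, Benjamini-Hochberg adjusted p under 0.05 over all tested genes). The median log2 fold change over the 30 genes was 0.29, beside 0.0058 over all tested genes. A rise of at least 1.25-fold was called for 13 of the 30, against 12.7% of all tested genes. Many of the 30 were abundant. At 100 counts per 1000000 (CPM) or more, as a mean of both groups, were 15, of which 12 rose and 2 fell. Of 5 under 10 CPM, 2 rose. The shares over all tested genes were not matched for level, and small changes pass more easily in abundant genes. The median was 0.36 between the replicate 1 libraries and 0.29 between the replicate 2 libraries. The neuronal enolase gene Eno2, the brain aldolase gene Aldoc and the kinase gene Pdk1 rose most, by 1.77, 1.18 and 0.95 on the log2 scale. The hexokinase gene Hk2, the lactate transporter gene Slc16a1 and the pyruvate dehydrogenase subunit gene Pdha1 fell. Together the 33 genes took 1.32% of the counts under Mock and 1.67% under uniSTING, the same to 3 digits in either replicate.

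**Figure D1:**
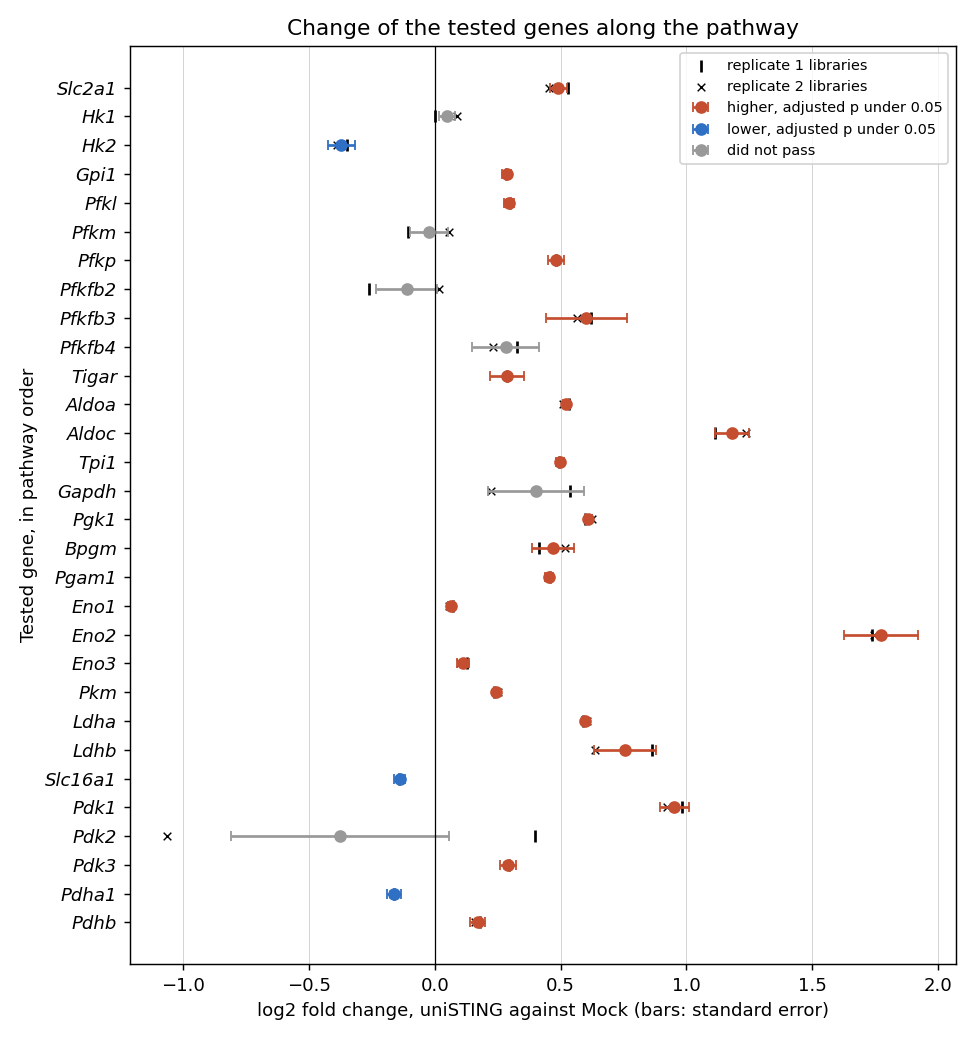
Log2 fold change of uniSTING against Mock (x axis) for the 30 tested genes in pathway order (y axis), with standard error bars, colour for the test result, and marks for the replicate 1 and replicate 2 libraries alone. Eno2, Aldoc and Pdk1 lie farthest to the right, and Hk2, Slc16a1 and Pdha1 are the 3 genes left of 0 that passed.

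Promoters are shown for the 3 genes that rose most, for the abundant genes Ldha and Pgk1, and for Hk2, which fell most. They are RefSeq windows of the GRCm38.p6 build, from 250 bases before to 50 bases after a start site, read 5′ to 3′ on the gene's strand, and a gene with several start sites is shown by the window with the most matches. Capitals mark ACGTG or GCGTG on either strand, the core letters of the hypoxia response element. A CACGTG box, which Myc-family factors are also known to bind, holds 2 overlapping matches.
Ldha, chr7:46845554-46845853, plus strand: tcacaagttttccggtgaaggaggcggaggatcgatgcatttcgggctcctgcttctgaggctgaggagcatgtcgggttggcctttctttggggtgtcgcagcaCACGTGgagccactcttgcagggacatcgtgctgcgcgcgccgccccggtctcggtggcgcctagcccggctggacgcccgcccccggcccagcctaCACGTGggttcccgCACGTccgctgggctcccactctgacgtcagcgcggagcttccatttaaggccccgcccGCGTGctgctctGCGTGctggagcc
Pgk1, chrX:106186850-106187149, plus strand: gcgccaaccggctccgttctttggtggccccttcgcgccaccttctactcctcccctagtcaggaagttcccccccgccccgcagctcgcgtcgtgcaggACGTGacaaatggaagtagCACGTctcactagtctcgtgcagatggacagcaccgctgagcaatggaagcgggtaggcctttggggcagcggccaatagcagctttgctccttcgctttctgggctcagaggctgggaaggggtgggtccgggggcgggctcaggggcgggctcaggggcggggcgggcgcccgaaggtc
Pdk1, chr2:71872974-71873273, plus strand: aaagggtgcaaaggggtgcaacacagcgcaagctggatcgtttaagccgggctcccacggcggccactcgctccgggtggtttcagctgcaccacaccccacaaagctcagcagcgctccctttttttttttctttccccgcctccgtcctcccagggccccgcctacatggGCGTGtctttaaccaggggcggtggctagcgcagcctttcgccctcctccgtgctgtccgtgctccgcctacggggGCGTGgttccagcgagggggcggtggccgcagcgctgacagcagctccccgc
Aldoc, chr11:78322823-78323122, plus strand: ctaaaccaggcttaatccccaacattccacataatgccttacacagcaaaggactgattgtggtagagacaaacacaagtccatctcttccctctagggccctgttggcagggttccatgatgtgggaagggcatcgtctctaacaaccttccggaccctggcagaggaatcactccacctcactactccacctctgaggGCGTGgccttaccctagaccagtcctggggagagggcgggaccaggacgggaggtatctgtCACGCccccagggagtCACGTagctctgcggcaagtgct
Eno2, chr6:124769624-124769923, minus strand: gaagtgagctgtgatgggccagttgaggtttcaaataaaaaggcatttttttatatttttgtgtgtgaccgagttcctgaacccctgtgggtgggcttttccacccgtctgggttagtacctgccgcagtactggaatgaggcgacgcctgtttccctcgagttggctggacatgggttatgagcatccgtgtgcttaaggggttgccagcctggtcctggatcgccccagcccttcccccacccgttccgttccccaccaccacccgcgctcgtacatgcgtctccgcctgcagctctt
Hk2, chr6:82774405-82774704, minus strand: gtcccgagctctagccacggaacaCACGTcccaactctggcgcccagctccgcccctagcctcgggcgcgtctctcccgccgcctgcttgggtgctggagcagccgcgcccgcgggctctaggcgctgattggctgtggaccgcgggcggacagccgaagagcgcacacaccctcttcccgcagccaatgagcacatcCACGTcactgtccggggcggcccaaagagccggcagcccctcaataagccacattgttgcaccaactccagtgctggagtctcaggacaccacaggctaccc
The Ldha window held 7 matches, among them 2 CACGTG boxes, with first bases at -145, -144, -48, -47, -34, 26 and 38 when the first base after the 250 upstream bases is 1. The Pgk1 window held them at -150 and -131, the Pdk1 window at -78 and -2, the Aldoc window at -50, 12 and 28, and the Hk2 window at -226 and -52. Eno2, the gene with the largest rise, had no match in its window, which says only that these letters are not there. A promoter was listed for 32 of the 33 genes, and 27 of those 32 (84.4%) had a match in at least 1 window, beside 69.0% of 9254 tested genes with a listed promoter. By single windows the shares were 77.1% of 48 windows of these genes, 62.8% of 11870 windows of tested genes and 43.8% of 32851 windows in the whole table. Within the pathway, a match was found for 16 of the 21 genes that rose, for 3 of 3 that fell and for 6 of 6 that did not pass. A match is a description of the sequence and not a bound site.

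Library totals ran from 17502694 to 25071840 counts. Between the 2 libraries of a group the variance was 1.47 and 1.52 times that of counting noise, and within a group the file headers give both the same sample code. The labels call them preparations 1 and 2, without saying whether a preparation is a separate culture, so the p-values here reflect the spread of these libraries alone, possibly a technical one. Summed markers of mammary epithelial cells (8 genes, Epcam, Cdh1 and keratin genes among them) ran from 4823 to 5069 CPM, where CPM are counts per 1000000 counts of the scaled library size. Markers of leukocytes (7 genes), fibroblasts (5) and endothelial cells (4) summed to at most 12.8 CPM for any list in any library, with Itgam at 0 in all. Fold changes were lower for longer genes over 8935 genes at 10 CPM or more (Spearman rho = -0.48 across genes, which are not independent replicates). In these bulk samples, more cells of a kind and more RNA per cell cannot be told apart.

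Per kilobase of exon, the scale on which genes can be compared, the pathway spanned several orders of magnitude. Pyruvate kinase (Pkm) was the highest in Mock, at 660.1 and 659.5 CPM per kb in Mock and 777 and 785 CPM per kb in uniSTING. Ldha, the muscle-type lactate dehydrogenase, stood at 575 and 572 CPM per kb in Mock and 864 and 871 CPM per kb in uniSTING. On this scale it lay below Pkm in both Mock libraries and above it in both uniSTING libraries. Without division by length, Ldha lay below Pkm in every library, with 2860 and 2882 against 3886 and 3928 CPM in uniSTING. Pgk1, Aldoa, Eno1 and Pgam1 followed in Mock, with means of 507, 443, 353 and 349.8 CPM per kb. The neighbours Eno1 and Pgam1 overlapped in Mock (352.7 to 354.1 and 346.6 to 353.0) but not in uniSTING, where Pgam1 had 479 and Eno1 369 CPM per kb. At least 10% of the level of Pkm was reached by 8 genes in Mock (Pkm included), all of them from aldolase onward, with Slc16a1 slightly below at 65.8 CPM per kb. This set depended on the length scale. In CPM without length, Gpi1 (416) and Pfkl (362) also lay above 10% of Pkm (3300) in Mock, and Eno3 (207) lay below it. Genes of the upper part were lower, with Gpi1 at 64.4, Pfkl at 54.3, Slc2a1 at 28.3 and Hk1 at 18.4 CPM per kb in Mock. The exon length in the tables joins the exons of all transcripts of a gene and so understates the level of genes with long minor transcripts.

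**Figure D2:**
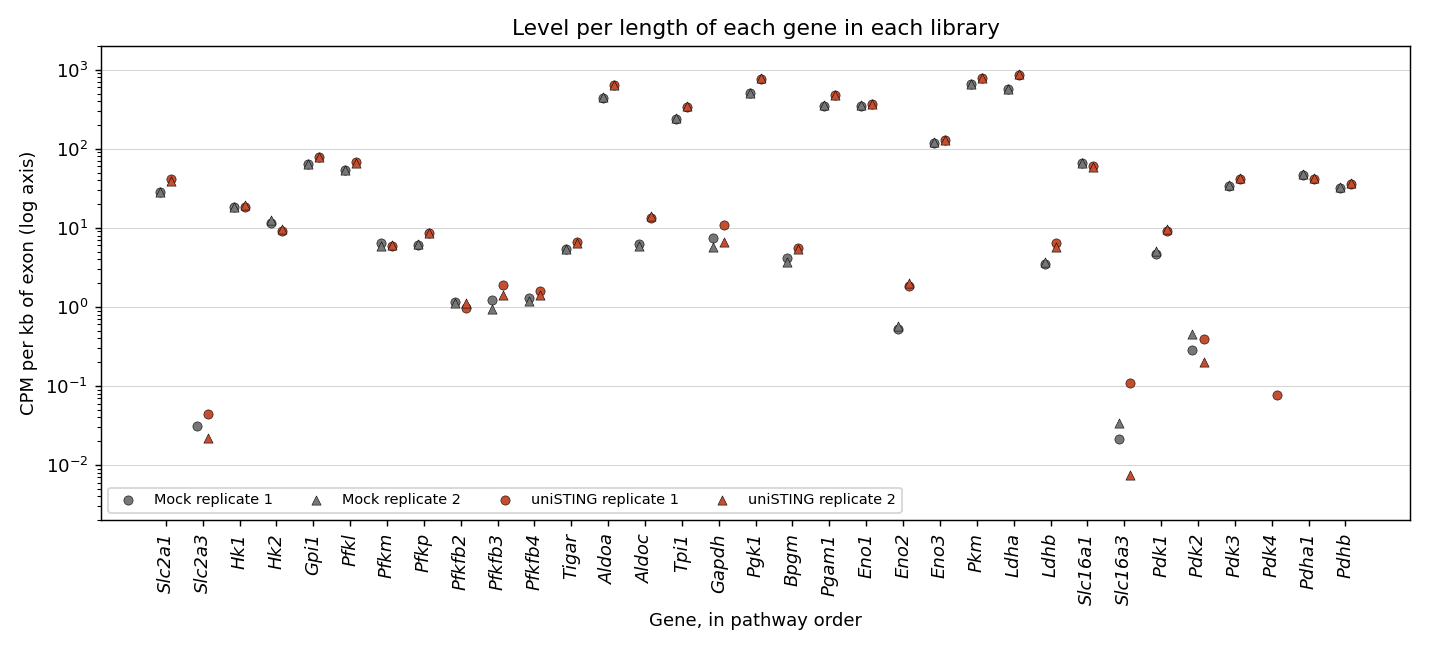
Level in CPM per kb of exon (y axis, log scale) of all 33 genes in pathway order (x axis) in each library, with grey for Mock, red for uniSTING, circles for replicate 1 and triangles for replicate 2, and values of 0 left out. Pkm, Ldha, Pgk1, Aldoa, Eno1, Pgam1 and Tpi1 stand highest, while Slc2a3, Slc16a3 and Pdk4 lie near the floor.

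Of the 2 glucose transporter genes, Slc2a1 held nearly all counts. It encodes GLUT1, the transporter of most dividing cells (chromosome 4, 118965908 to 118995180, GRCm39, as for all gene positions). It had 99.4 and 99.2 CPM in Mock and 144 and 136 CPM in uniSTING. Both uniSTING libraries lay above both Mock libraries, as they did for 23 of the 30 tested genes (37.8% of all tested genes), and Slc2a1 rose by 0.49 (SE 0.034, adjusted p = 6.00e-07) on the log2 scale. Slc2a3, the gene of the neuronal transporter GLUT3, had too few counts to test, 4 and 0 (Mock) and 6 and 4 (uniSTING). Its summed counts gave a ratio of 2.28 with a 95% counting interval from 0.657 to 9.94, which covers counting error only and spans a ratio of 1.

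The hexokinases, which trap glucose in the cell as glucose 6-phosphate, did not follow the transporter in the original fit. Hk2, the inducible hexokinase that binds mitochondria (chromosome 6, 82702006 to 82751435), had 68.9 and 75.1 CPM in Mock and 54.1 and 57.3 CPM in uniSTING. Its groups did not overlap, and it fell by 0.37 on the log2 scale (SE 0.053, adjusted p = 1.67e-04), the largest fall that passed in the pathway. Hk1, the hexokinase of most tissues, had 157 and 157 CPM in Mock and 157 and 166 CPM in uniSTING and did not pass, with little between its groups (log2 fold change 0.048, adjusted p = 0.231). While Slc2a1 rose, the summed level of the 2 hexokinases was 29.9 and 30.9 CPM per kb in Mock and 27.5 and 29.1 in uniSTING, or 0.929 times as high. The share of Hk1 in that sum was 61.4% and 59.3% in Mock and 67.0% and 67.0% in uniSTING, higher in both uniSTING libraries. Hk1 passed once the length trend was taken out of every library (log2 fold change 0.19, adjusted p = 6.67e-04). Hk2 was then at -0.31. The summed hexokinase level above keeps the trend and was not recomputed without it, so its fall may depend on that setting. Leaving out uniSTING replicate 1 also let it pass (0.091, adjusted p = 0.0387), whereas its value was -0.0017 without uniSTING replicate 2.

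Glucose-6-phosphate isomerase (Gpi1) and the phosphofructokinases carry sugar to the committed step. Gpi1 had 416 and 415 CPM in Mock and 506 and 507 CPM in uniSTING, a rise of 0.29 (SE 0.018, adjusted p = 2.77e-07). Of the phosphofructokinase genes, the liver type Pfkl was the main one and rose by 0.30 (SE 0.019, adjusted p = 4.06e-07), from 362 ± 2.73 to 445 ± 4.27 CPM (mean ± SD of 2 libraries, as throughout). The platelet type Pfkp rose more, by 0.48 (SE 0.032, adjusted p = 4.56e-07), with 81.4 and 83.1 CPM in Mock and 114 and 116 CPM in uniSTING. The muscle type Pfkm had 21.4 and 19.5 CPM in Mock and 19.9 and 20.3 CPM in uniSTING, overlapping groups and a log2 fold change of -0.023 (adjusted p = 0.828). In the sum of the 3 genes per kb, Pfkl held 81.4% and 81.8% in Mock and 82.3% and 81.8% in uniSTING, and Pfkm 9.55% and 8.86% in Mock and 7.29% and 7.52% in uniSTING. With the length trend removed, the value of Pfkp, whose exons join to 13401 bases, was 0.75.

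Fructose-2,6-bisphosphate, the strongest activator of phosphofructokinase, is made and broken down by the bifunctional PFKFB enzymes and broken down by TIGAR. Pfkfb3, whose product favours synthesis, had 9.36 and 7.20 CPM in Mock and 14.5 and 10.7 CPM in uniSTING. It rose by 0.60 (SE 0.16, adjusted p = 0.00956), although in each group replicate 1 was higher than replicate 2, and its call was lost without Mock replicate 2 (0.41, adjusted p = 0.0969). Without uniSTING replicate 1 the value was 0.38, and 0.81 without uniSTING replicate 2, both still past the threshold. Tigar, the phosphatase gene, had 19.7 and 19.5 CPM in Mock and 24.02 and 23.9 CPM in uniSTING. It rose by 0.29 (SE 0.068, adjusted p = 0.00505), a call that was lost with DESeq2 (adjusted p = 0.0716). Pfkfb4 had 6.24 and 5.84 CPM in Mock and 7.85 and 6.87 CPM in uniSTING (adjusted p = 0.101) and Pfkfb2 had 8.45 and 8.15 CPM in Mock and 7.05 and 8.24 CPM in uniSTING (adjusted p = 0.480). A gene of synthesis and a gene of breakdown thus both rose. All 4 were scarce, under 7 CPM per kb in each library.

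From aldolase to phosphoglycerate mutase, where the sugar is split and its energy harvested, 6 of 7 genes rose, counting Bpgm. Of all tested genes, 24.9% rose. Gapdh did not pass. Aldoa, the main aldolase (chromosome 7, 126394406 to 126399923), had 1280.4 and 1299 CPM in Mock and 1853 and 1848 CPM in uniSTING, a rise of 0.52 (SE 0.013, adjusted p = 3.78e-10). Aldoc, the brain-type aldolase (chromosome 11, 78213794 to 78218607), was far less abundant, with 20.1 and 19.3 CPM in Mock and 43.7 and 45.6 CPM in uniSTING, and rose 2.27-fold (adjusted p = 1.72e-07). Aldoc and Eno2 were the 2 members that rose at least 2-fold, as 2.00% of all tested genes did. Triosephosphate isomerase (Tpi1) rose 1.41-fold, from 667 ± 2.68 to 941 ± 6.23 CPM. Phosphoglycerate kinase (Pgk1, chromosome X, 105230706 to 105247305), which makes ATP, had 1142 and 1134 CPM in Mock and 1725 and 1748 CPM in uniSTING and rose by 0.61 (SE 0.013, adjusted p = 1.85e-10). Pgam1, phosphoglycerate mutase, rose 1.37-fold, from 693 ± 9.03 to 949 ± 8.23 CPM. Bpgm, whose product makes 2,3-bisphosphoglycerate, rose 1.38-fold with 15.04 and 13.4 CPM in Mock and 20.1 and 19.3 CPM in uniSTING.

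Gapdh, the dehydrogenase gene often used as a reference for loading, stood apart from its neighbours in the route in level and in spread. It had 30.9 and 23.6 CPM in Mock and 44.9 and 27.6 CPM in uniSTING, and its level per kb was 0.0147 and 0.0113 times that of Pgk1 in the Mock libraries. The groups overlapped, with Mock replicate 1 above uniSTING replicate 2, and Gapdh did not pass (log2 fold change 0.40, SE 0.19, adjusted p = 0.102). It passed with the replicate number as a block (0.39, adjusted p = 0.00123) and without the low count filter (0.40, adjusted p = 2.60e-06). It also passed, at 0.73, when uniSTING replicate 2 was left out (adjusted p = 1.46e-07). Leaving out uniSTING replicate 1 gave 0.028 (adjusted p = 0.860), and leaving out Mock replicate 2 gave 0.21 (adjusted p = 0.491), so that single libraries decide its value. Of the distinct 50-base stretches in its protein-coding transcripts, 58.4% occurred exactly in transcripts of other annotated genes, 222 genes in all (GENCODE M21, GRCm38). The deposited counts come from uniquely mapped reads, so fragments that lie wholly in shared sequence may be missing, and the level of Gapdh here is uncertain. The same share was 68.0% for Pgk1, 49.5% for Eno1, 41.5% for Pgam1 and 10.4% for Ldha. Their part in the fold changes was not tested.

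The enolases, which make phosphoenolpyruvate, had a smaller summed change than the steps around them. Eno1, the main enolase (chromosome 4, 150321178 to 150333336), had 1897 and 1905 CPM in Mock and 1994 and 1980.4 CPM in uniSTING and rose by only 0.064 (SE 0.012, adjusted p = 9.11e-04), a 1.05-fold change. Its near-identical copy Eno1b, named here after its values were seen because reads may be split between the pair, had 606 and 612 CPM in Mock and 594 and 601 CPM in uniSTING and did not pass (adjusted p = 0.209). Eno3, the muscle enolase, had 204 and 210.2 CPM in Mock and 223 and 225 CPM in uniSTING and rose 1.08-fold (adjusted p = 0.00305). That call and its direction were lost once the length trend was removed (log2 fold change -0.063, adjusted p = 0.0562), Eno3 being the second shortest of the 33 genes by exon length at 1739 bases. Eno2, the neuronal enolase (chromosome 6, 124737016 to 124746636), had 2.50 and 2.72 CPM in Mock and 8.54 and 9.32 CPM in uniSTING, from 44 and 60 against 160 and 232 counts. It rose 3.42-fold (adjusted p = 2.67e-06), the largest rise of the pathway, yet held 0.113% and 0.121% in Mock and 0.362% and 0.396% in uniSTING of the summed enolase level per kb. That sum was 471 and 476 CPM per kb in Mock and 501 and 499.6 in uniSTING, or 1.06 times as high, against 1.45 times for the aldolases. The copy Eno1b was left out of this sum and of the enolase shares. It had 323 and 326 CPM per kb in Mock and 317 and 320 in uniSTING, so shares with it included would be smaller.

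Pkm, which encodes the pyruvate kinases of most non-hepatic tissues, had 3301 and 3298 CPM in Mock and 3886 and 3928 CPM in uniSTING and rose by 0.24 (SE 0.010, adjusted p = 1.27e-08). Counts per gene do not separate its M1 and M2 splice forms, and 15.3% of its exon bases overlapped another annotated gene, Gm49759, which itself had 26.2 and 26.3 CPM in Mock and 36.5 and 34.4 CPM in uniSTING. The lower route was thus higher in uniSTING at each step with a passing gene, but not by the same amount, with 1.5-fold for Pgk1, 1.4-fold for Aldoa, Tpi1 and Pgam1, 1.2-fold for Pkm and under 1.1-fold for Eno1. These amounts depended on the trend setting. With the length trend removed, log2 fold changes were 0.49 for Pgk1, 0.45 for Aldoa, 0.41 for Tpi1, 0.30 for Pgam1, 0.28 for Pkm and 0.11 for Eno1. With length and GC trends removed they were, in the same order, 0.49, 0.53, 0.46, 0.34, 0.37 and 0.20.

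**Figure D3:**
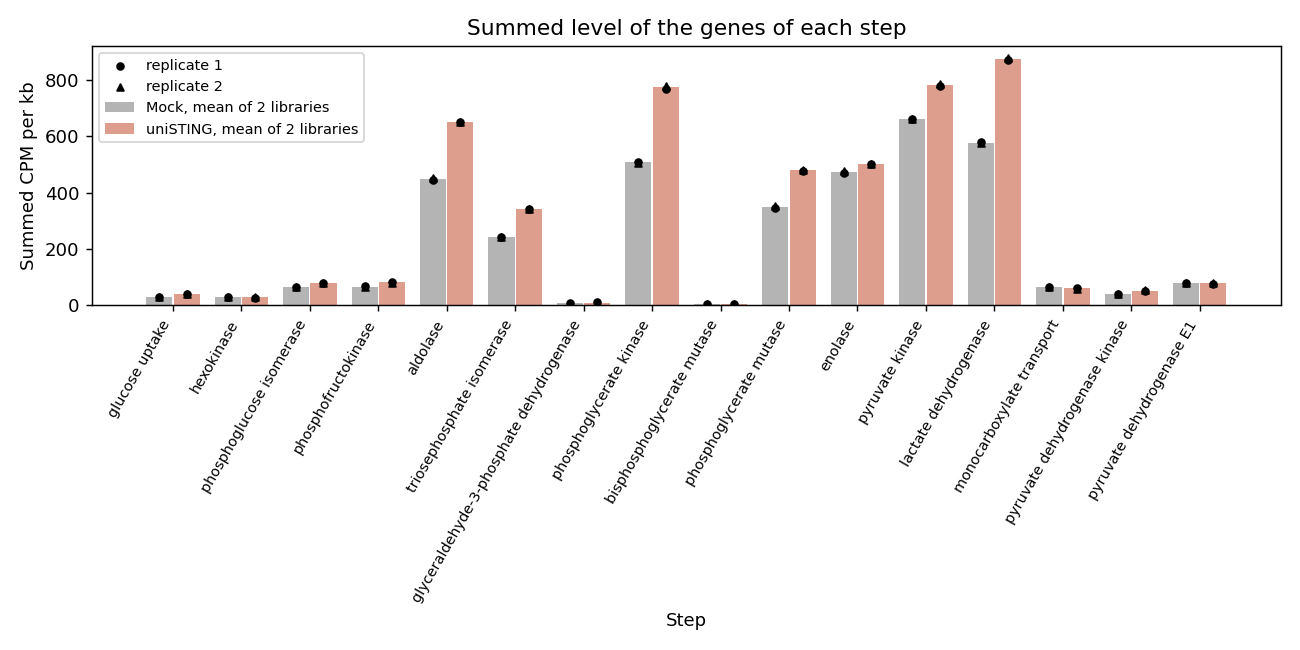
Summed CPM per kb of the genes of each step (y axis) by step (x axis), as means of 2 libraries with bars from 0 and points for the libraries, leaving out the genes that set fructose-2,6-bisphosphate and the copy Eno1b. Lactate dehydrogenase, phosphoglycerate kinase and aldolase show the widest gaps between grey (Mock) and red (uniSTING) bars, and the enolase bars are close at 473 and 500.3.

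At the lactate branch, both dehydrogenase genes rose. Ldha (chromosome 7, 46490899 to 46505051), whose enzyme favours lactate formation, had 1903 and 1892 CPM in Mock and 2860.1 and 2882 CPM in uniSTING and rose by 0.60 (SE 0.011, adjusted p = 8.18e-11). Ldhb, the heart-type gene (chromosome 6, 142435975 to 142453683), was scarce, with 5.50 and 5.75 CPM in Mock and 10.1 and 9.0 CPM in uniSTING, and rose by 0.76 (SE 0.12, adjusted p = 4.13e-04). The ratio of Ldha to Ldhb per kb was 164 and 156 in Mock and 134 and 152 in uniSTING, so that Ldha made up over 99% of the summed level in each library. The lactate transporter gene Slc16a1, which encodes MCT1 (chromosome 3, 104545984 to 104565778), went the other way. It had 293 and 289 CPM in Mock and 266 and 263 CPM in uniSTING, without overlap (37.3% of all tested genes had both uniSTING libraries below both Mock libraries), and fell by 0.14 (SE 0.022, adjusted p = 2.97e-04). Slc16a3, which encodes MCT4, a transporter known for lactate export from glycolytic cells, was near the floor, with counts of 2 and 4 (Mock) and 11 and 1 (uniSTING). The 11 counts of uniSTING replicate 1 and the 1 count of uniSTING replicate 2 show that its ratio of 1.82 (95% counting interval 0.633 to 5.91) rests on 1 library.

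Genes that govern pyruvate entry into mitochondria moved unequally. Pdk1, a kinase that inactivates pyruvate dehydrogenase (chromosome 2, 71703568 to 71734202), had 36.3 and 39.8 CPM in Mock and 71.9 and 75.7 CPM in uniSTING, a mean 1.94 times as high. It rose by 0.95 (SE 0.058, adjusted p = 2.46e-07). Pdk3, the most abundant kinase of the family here (chromosome X, 92808213 to 92875807), had 87.7 and 89.7 CPM in Mock and 108 and 109.6 CPM in uniSTING and rose by 0.29 (SE 0.032, adjusted p = 2.09e-05). Pdk2 had counts of 16 and 32 (Mock) and 23 and 16 (uniSTING), with overlapping groups and opposite directions in the 2 replicate numbers (adjusted p = 0.505). Pdk4, a kinase gene known to respond to fasting, had no count in 3 libraries and 5 counts in uniSTING replicate 1. Over the Mock libraries its 0 counts allow up to 0.0755 CPM.

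The share of Pdk1 in the summed kinase level per kb was 11.9% and 12.6% in Mock and 17.9% and 18.5% in uniSTING, and that of Pdk3 was 87.4% and 86.3% in Mock and 81.2% and 81.2% in uniSTING. Their target, the E1 component of the complex, was measured by 2 genes that went opposite ways. Pdha1, the catalytic alpha subunit that the kinases phosphorylate (chromosome X, 158905205 to 158921409), had 173 and 178 CPM in Mock and 154 and 159 CPM in uniSTING and fell by 0.16 (SE 0.028, adjusted p = 6.08e-04). Pdhb, the beta subunit, had 121 and 126 CPM in Mock and 138 and 141 CPM in uniSTING and rose by 0.17 (SE 0.031, adjusted p = 8.47e-04). The kinase genes together reached 0.847 and 0.851 times the level of Pdha1 per kb in Mock and 1.25 and 1.24 times in uniSTING. The kinase sum was 39.2 and 40.6 CPM per kb in Mock and 51.7 and 52.7 in uniSTING. Pdha1 and Pdhb together had 77.8 and 80.4 in Mock and 77.0 and 79.1 in uniSTING. Against both E1 genes the kinase sum thus stayed lower in every library, so the crossing of 1 depended on using Pdha1 alone. Of the Pdha1 exon bases, 16.1% overlapped exons of Map3k15 on the other strand, and counting ignored strand. These are RNA levels and do not measure enzyme activity or flux.

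**Figure D4:**
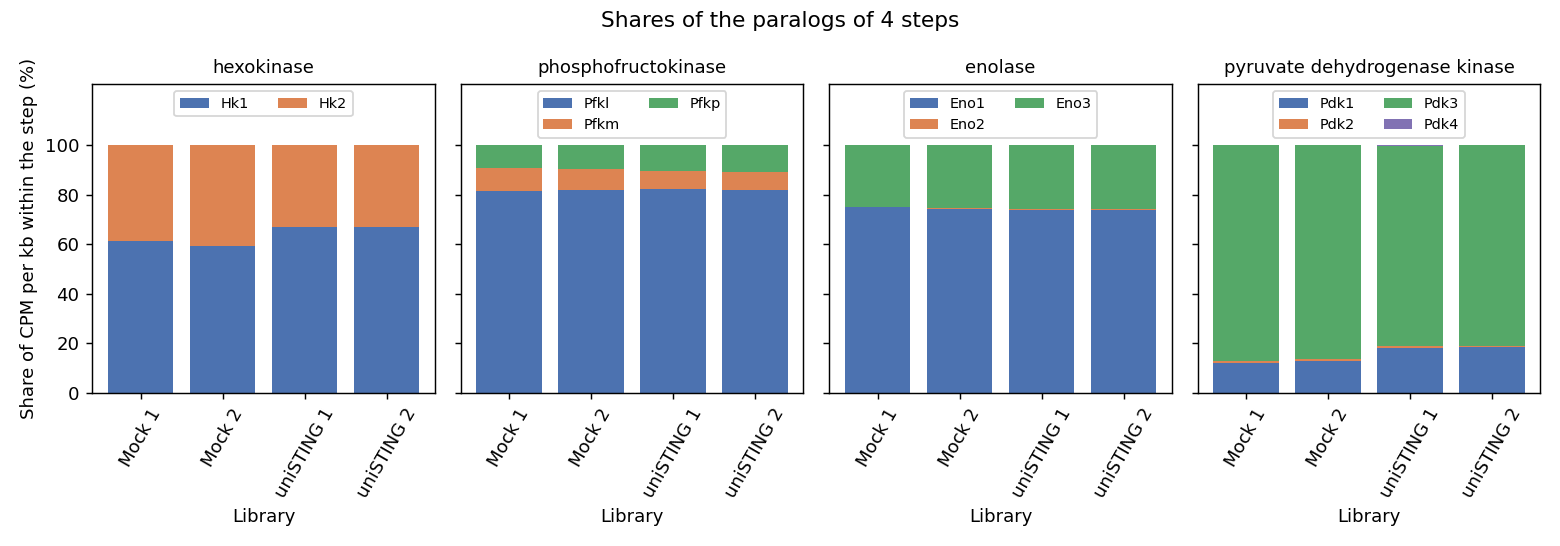
Share of each paralog in the summed CPM per kb of its step (y axis, percent) in the 4 libraries (x axis) for hexokinase, phosphofructokinase, enolase and pyruvate dehydrogenase kinase. The copy Eno1b is not counted in the enolase step. Hk1 and Pdk1 hold a larger share in both uniSTING libraries than in both Mock libraries, while Pfkl stays near 82% in all 4.

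Several less abundant paralogs had larger values than the main gene of their step. The genes Aldoc, Eno2, Ldhb and Pdk1 each rose by more than the main gene, with 1.18 against 0.52 for Aldoa, 1.77 against 0.064 for Eno1, 0.76 against 0.60 for Ldha and 0.95 against 0.29 for Pdk3. Pfkp likewise rose by 0.48 against 0.30 for Pfkl. The less abundant paralogs Pfkm, at -0.023, and Pdk2, at -0.38, did not pass, and Hk2, the less abundant hexokinase, fell by 0.37. In mean CPM per kb, Hk2 stood at 12.1 in Mock and 9.33 in uniSTING, and Pdk1 at 4.89 and 9.49. These differences between paralogs were not tested, and an exact two-sided permutation test of 2 libraries against 2 cannot go below p = 0.333. For Ldhb and Ldha the gap was 0.28 between the replicate 1 libraries and 0.032 between the replicate 2 libraries. With the length trend removed, Ldhb was at 0.56 and Ldha at 0.55, so this pair barely differed.

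Of the 33 genes, 9 lie on chromosome 6. Eno2, Tpi1 and Gapdh lie within 0.5 Mb there (GRCm39), with 40.9 kb between Eno2 and Tpi1 and 347 kb between Tpi1 and Gapdh. Eno2 and Tpi1 both rose, by 1.77 and 0.50, from levels per kb that differed widely (0.554 and 242 CPM per kb in Mock). On the same chromosome Hk2 fell, Bpgm, Tigar and Ldhb rose, and Slc2a3 and Pdk4 were too low to test.

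With the length trend removed, 21 genes rose and 3 fell, 20 of the 21 and all 3 being those of the original fit. The median of the 30 genes was then 0.34, and 0.39 with length and GC trends removed. Short genes were lower in this fit, such as Pgk1 (0.49) and Pgam1 (0.30), and long genes were higher, such as Pdk1 (1.08) and Pfkl (0.39).

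**Figure D5:**
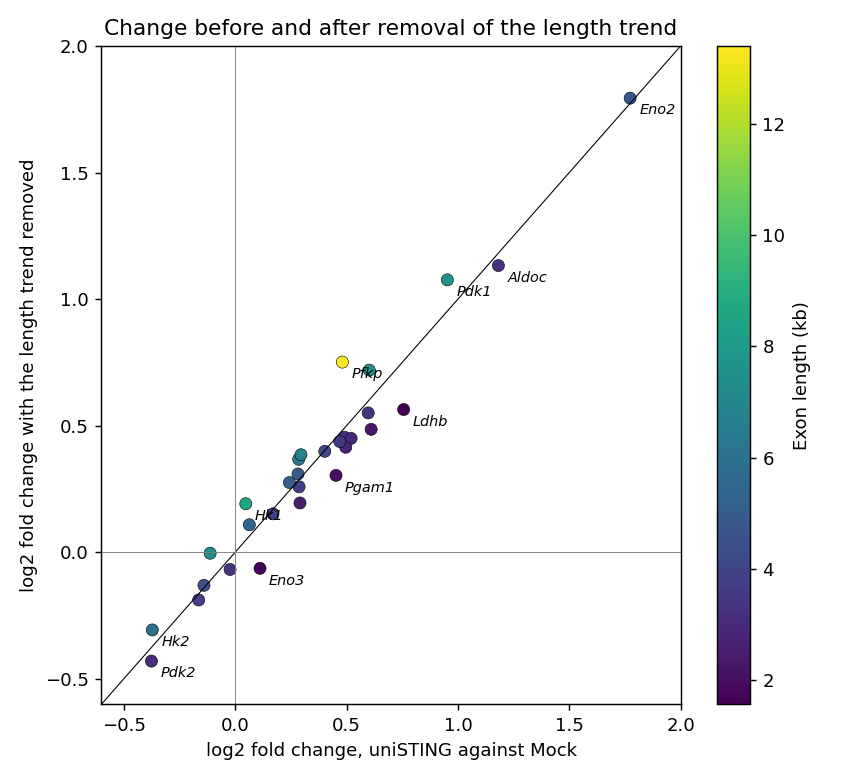
Log2 fold change of the 30 tested genes as fitted (x axis) and with the length trend removed (y axis), coloured by exon length in kb, with the line of equality. Points lie close to the line, Pfkp lies above it and Pgam1, Ldhb and Eno3 below it.

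Neighbouring routes had smaller medians than the 30 genes. The counts of their genes that rose or fell stand beside 24.9% and 25.4% of all tested genes. Among 7 pentose phosphate genes, which make NADPH and ribose from glucose 6-phosphate, 5 rose and none fell, with a median of 0.19. G6pdx, the entry enzyme, rose 1.24-fold (adjusted p = 6.09e-06) and Pgd 1.26-fold (adjusted p = 2.94e-06). Of 16 citrate cycle genes, 8 rose, 1 fell and 7 did not pass, with a median of 0.085. Citrate synthase (Cs) had 494 and 495 CPM in Mock and 488 and 498 CPM in uniSTING and did not pass. Among 11 tested partners of pyruvate entry and export, 4 rose, 1 fell and 6 did not pass, with a median of 0.12. Bsg, the chaperone basigin that monocarboxylate transporters need, rose 1.41-fold from 445 ± 1.40 to 628 ± 3.22 CPM. The mitochondrial pyruvate carrier gene Mpc2 rose 1.45-fold (adjusted p = 3.75e-05), while Mpc1 had 11.1 and 11.1 CPM in Mock and 10.0 and 10.6 CPM in uniSTING and did not pass. Pdpr, a regulator of the phosphatase that reactivates pyruvate dehydrogenase, fell 1.44-fold (adjusted p = 2.17e-04).

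Other isoforms of the glycolytic steps were mostly near the floor. Of 23 such genes, 11 were tested and 6 had no count in any library, among them liver pyruvate kinase (Pklr) and the testis genes Pgk2 and Ldhc. Slc2a6, a glucose transporter family gene, rose from 1.99 ± 0.252 to 3.56 ± 0.132 CPM (adjusted p = 0.00780), and Adpgk, an ADP-dependent glucokinase, fell 1.16-fold (adjusted p = 5.14e-04). The gluconeogenic list had 2 tested genes, Pck2 and G6pc3, and both fell, by 0.47 and 0.29 on the log2 scale (adjusted p = 6.14e-07 and adjusted p = 0.00660), where 25.4% of all tested genes fell.

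Of 17 tested regulators of the pathway, 4 were higher, 6 lower and 7 did not pass, with a median of -0.0039. Over all tested genes, 24.9% were higher and 25.4% lower. Egln3, a prolyl hydroxylase that hypoxia-inducible factor is known to induce, had 37.1 and 34.3 CPM in Mock and 69.2 and 74.8 CPM in uniSTING and rose 2.03-fold (adjusted p = 2.26e-07). The transcript of the factor itself, Hif1a, had 197 and 191 CPM in Mock and 181 and 179 CPM in uniSTING and fell 1.08-fold (adjusted p = 0.00616). Hif1an, an asparagine hydroxylase that inhibits the factor, fell 1.45-fold (adjusted p = 4.18e-05). Myc, a factor known to raise glycolytic genes, had 394 and 390.5 CPM in Mock and 295 and 296 CPM in uniSTING and fell by 0.41 (adjusted p = 4.13e-08). Foxk1, another factor linked to aerobic glycolysis, fell 1.69-fold (adjusted p = 1.17e-06). Its paralog Foxk2 went the other way, with 206 and 211 CPM in Mock and a 1.06-fold rise (adjusted p = 0.0213). Mlx, of the same list, rose 1.41-fold (adjusted p = 4.22e-05). Foxk2 and Mlx were named after their values were seen. Txnip, an inhibitor of glucose uptake named here after its values were seen, fell 1.69-fold from a low level (adjusted p = 0.00749). The levels of these regulators stand beside the pathway values as measurements, and their part in them was not tested.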

How the data were processed

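Each library has 1 table of unnormalized read counts, which the authors deposited. The file headers name featureCounts 2.0.1 with the paired-end setting, no strand option, the Ensembl 103 annotation of GRCm39 summed over exons by gene, and uniquely mapped reads as input. HISAT2 is named as aligner by the submitters' processing notes, in a version not given in the sources used here. Exon length is the deposited tables' other column used here, a summed length in bases. Symbols matched 52093 of 53647 identifiers. A second identifier with the symbol Aldoa (32 to 47 counts) was not used, and Gapdh, Pgk1 and other genes with near-identical copies can lose reads under unique mapping.

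Counts were tested with edgeR 4.0.16 (R 4.3.3), TMM normalization, the expression filter by group (minimum count 10, total 15), the quasi-likelihood test and Benjamini-Hochberg adjustment over 12972 genes, at 0.05. SE values follow from the F statistic and are approximate. CPM used TMM-scaled library sizes. Fold changes of 1 replicate number used a prior count of 2. Members, lists and alternatives were chosen with earlier results of these data known. Beside all members, up to 4 genes of each list with the smallest p were to be named. Cs, Mpc1, Hif1a, Txnip, Foxk2, Mlx, Ugp2 and Gys1 are named after their values were seen. So are the isoforms with no count, the serine genes and the copies of members. G6pc1 and Mondoa matched no symbol. Promoters are RefSeq's (GRCm38.p6), and shared 50-base stretches and GC content come from GENCODE M21 transcripts (GC for 99.9% of tested genes). Alternatives were DESeq2's size factors, 2 other filters, DESeq2 1.42.0, limma-voom (limma 3.58.1), a replicate block, each library left out, and lowess trends with length or with length and GC as offsets (span 0.3).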

Additional observations from a re-analysis of the deposited data

How the results depend on the processing

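The members' calls held in nearly all settings, with 20 to 22 higher and 3 lower in each of the 12 alternative fits, the 3 lower ones being the same genes each time. Calls lost were those of Tigar (DESeq2), Pfkfb3 (without Mock replicate 2) and Eno3 (both trend removals), and calls gained were those of Gapdh, Hk1 and Pfkfb4 (adjusted p = 0.0484 with length and GC trends removed). The median of 0.29 was 0.40 without the low count filter, which tests all 33 genes, 0.39 with length and GC trends removed and 0.36 for replicate 1 alone, and ran from 0.28 to 0.38 with 1 library left out. Signs turned, besides Eno3 at -0.063 and -0.014, only for genes that did not pass: with 1 library left out, Hk1 ran from -0.0017 (without uniSTING replicate 2) to 0.091, Pfkm from -0.092 to 0.032 (without Mock replicate 1) and Pdk2 from -0.88 to 0.038 (without uniSTING replicate 2; 0.017 without Mock replicate 2), and for a single replicate number Pfkm was at 0.056 and Pfkfb2 at 0.016 (replicate 2) and Pdk2 at 0.40 (replicate 1). The causes were not tested. Without length, shares in Mock were 68.5% for Hk1, 77.9% for Pfkl, 9.82% for Eno3, 99.7% for Ldha and 29.7% for Pdk1, beside 60.4%, 81.6%, 25.2%, 99.4% and 12.3% per kb. With ACGTG alone, 18 of 32 members (56.2%) had a promoter match, beside 29.9% of tested genes. By call these were 10 of 21 members that rose, 2 of 3 that fell and 5 of 6 that did not pass.

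The labels number the preparations, and these numbers are not known to pair the libraries. The deviations of same-numbered libraries had a Pearson r of 0.60 and a Spearman rho of 0.0095 across 8935 genes. Some scarce genes had counts in replicate 1 of both groups and 0 in replicate 2. Among them were Epas1 (29 in Mock, 36 in uniSTING), Ptprc (8 and 19) and Col3a1 (6 and 21), while others, such as Csf1r, had counts in every library. Gapdh and Pfkfb3 were also higher in replicate 1 of each group. The cause of this shared difference was not tested. With the replicate block, 22 members were higher and 3 lower. Depth limits the genes under about 1 CPM, Slc2a3, Slc16a3, Pdk4 and Pdk2, for which no difference was detectable.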

Other observations

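Genes of serine and glycine synthesis, which branches from 3-phosphoglycerate, fell in uniSTING, while some glycogen-linked genes rose. This split of a wider list was made after its values were seen, and is a description. In the whole list of 19 genes for the serine, hexosamine and glycogen branches, 14 were tested, 4 rose, 7 fell and 3 did not pass, with a median of -0.068. Of all tested genes, 24.9% rose and 25.4% fell. All 5 genes from Phgdh to Shmt2 fell. Shmt2, the mitochondrial serine hydroxymethyltransferase, had 779 and 786 CPM in Mock and 606 and 609.6 CPM in uniSTING (adjusted p = 1.68e-08). Phgdh, the entry enzyme, fell 1.09-fold, Psph 1.08-fold, Shmt1 1.14-fold and Psat1 1.03-fold (adjusted p = 0.0154). Pgm1, which joins glucose 6-phosphate to glycogen, rose from 48.0 ± 1.43 to 69.5 ± 2.59 CPM (adjusted p = 7.93e-06), the branching enzyme gene Gbe1 rose 1.33-fold and Ugp2 rose 1.19-fold. Glycogen synthase (Gys1) had 40.3 ± 0.360 to 42.5 ± 0.546 CPM, Mock to uniSTING, and did not pass.

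Transcribed copies of pathway genes, also chosen after their values were seen, can be set beside the genes they derive from. Ldha-ps2 had 4.37 and 4.21 CPM in Mock and 8.11 and 9.04 CPM in uniSTING and Pgk1-rs7 had 3.01 and 2.76 CPM in Mock and 6.51 and 4.98 CPM in uniSTING. Both rose (adjusted p = 9.88e-05 and adjusted p = 0.00120). Pgam1-ps2 rose 1.32-fold (adjusted p = 0.0173). Whether their reads come from the copies or from the parent genes was not tested.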
